A study of Mus musculus with 12 samples.

Results

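Cerulenin, an inhibitor of fatty acid synthase, was compared with its vehicle by ATAC-seq, an assay in which a transposase cuts and tags open chromatin. The comparison holds 4 of the 12 libraries of the study, chosen by their titles: 2 of mouse granulocyte-monocyte progenitors given 5 µM cerulenin for 2 days (CER) and 2 given DMSO (Vehicle). All groups share the same cells, ER-HOXA9 progenitors from C57BL6 bone marrow, a fusion of the estrogen receptor with HOXA9, kept in medium with serum, stem cell factor and 0.5 µM beta-estradiol. The labels call the 2 libraries of a group biological replicates. Whether they came from separate animals or from 1 clone is not given in the sources used here. Libraries of other groups were used for the spread between replicates and for side-by-side values: untreated cells on day 0 (Day0), 200 nM of the LSD1 inhibitor GSK-LSD1 (LSD1i), 5 µM mercaptopurine (6MP) and all 3 agents together (Combo).

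Fatty acid synthase builds palmitate from acetyl-CoA and malonyl-CoA with NADPH as the reductant. Its gene and those of sterol synthesis are targets of the SREBP transcription factors, which are held back when sterols are plentiful and released when they are scarce. Granulocyte-monocyte progenitors give rise to neutrophils and monocytes, and HOXA9 is known for blocking that step in leukaemia.

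The Vehicle libraries held 51721 and 53839 called peaks, and the CER libraries 50549 and 42651. Read totals were not used; the fragment pileup at each peak summit was recovered from the peak lists, and the background was 3.87 to 4.38 fragments in these 4 libraries. CER replicate 2 stood apart, with a median summit at 23.0 times background against 32.6 to 34.1 in the other 3 libraries. Its peaks covered 36.1 Mb against 46.2 to 47.5 Mb. The number of limma calls, the one-sided peak counts and several list medians are therefore also given without it. Other counts, among them those at an unadjusted p under 0.05, are given only with it included. Of 15 progenitor markers, 13 or 14 had a called peak at the start site in each of the 4 libraries, the exception in all 4 being Elane. Of 8 mature neutrophil markers, 3 or 4 had one. None of 6 T and NK cell markers had one, but markers of other lineages did. Per library these were 3 to 5 of 6 erythroid, 3 of 4 megakaryocyte and 5 of 7 monocyte and macrophage markers. They were also 2 of 4 mast cell and basophil, 2 of 4 B cell, 1 or 2 of 4 dendritic cell and 2 of 5 stromal and endothelial markers. Start-site peaks alone thus do not set these lineages apart.

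The promoters of 4 genes are shown because the results below turn on their start sites: Nlrc3, a region listed as less open that lies over a protein-coding RefSeq promoter and had a peak in every library; Camp, the granule gene with the largest difference; and Fasn and Hmgcs1, the gene of the drug's target and a sterol synthesis gene. Each window runs from 250 bases before to 50 bases after the start, 5′ to 3′ on the gene's strand, from RefSeq GRCm38.p6. Capitals mark matches, on either strand, to 7 short motifs: the sterol regulatory element by the letters TCACNCCAC, the E-box by CACGTG, the CCAAT box by CCAAT, the GC box by GGGCGG, AP-1 by TGANTCA, the core of ETS factors and PU.1 by GGAAGT, and C/EBP by TTGCNNAA. Windows are Nlrc3 chr16:3976583-3976882 (minus strand), Camp chr9:109849407-109849706 (minus), Fasn chr11:120824498-120824797 (minus) and Hmgcs1 chr13:119690101-119690400 (plus).
Nlrc3: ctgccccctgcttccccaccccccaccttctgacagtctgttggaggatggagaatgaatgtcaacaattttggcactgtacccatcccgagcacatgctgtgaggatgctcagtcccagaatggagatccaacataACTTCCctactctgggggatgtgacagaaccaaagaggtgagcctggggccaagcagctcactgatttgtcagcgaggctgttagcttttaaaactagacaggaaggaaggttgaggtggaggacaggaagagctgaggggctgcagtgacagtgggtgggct
Camp: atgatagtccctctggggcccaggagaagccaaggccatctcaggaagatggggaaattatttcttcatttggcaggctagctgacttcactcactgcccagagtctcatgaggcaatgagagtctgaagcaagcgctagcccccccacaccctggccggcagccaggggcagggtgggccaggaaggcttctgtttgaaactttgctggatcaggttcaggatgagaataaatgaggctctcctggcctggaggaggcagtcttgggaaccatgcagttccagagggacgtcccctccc
Fasn: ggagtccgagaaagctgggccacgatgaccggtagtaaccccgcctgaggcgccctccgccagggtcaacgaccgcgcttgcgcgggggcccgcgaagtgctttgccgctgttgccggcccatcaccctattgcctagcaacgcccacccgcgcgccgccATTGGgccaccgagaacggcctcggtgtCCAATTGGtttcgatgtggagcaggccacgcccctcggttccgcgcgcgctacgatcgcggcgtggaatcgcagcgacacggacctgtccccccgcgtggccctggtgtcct
Hmgcs1: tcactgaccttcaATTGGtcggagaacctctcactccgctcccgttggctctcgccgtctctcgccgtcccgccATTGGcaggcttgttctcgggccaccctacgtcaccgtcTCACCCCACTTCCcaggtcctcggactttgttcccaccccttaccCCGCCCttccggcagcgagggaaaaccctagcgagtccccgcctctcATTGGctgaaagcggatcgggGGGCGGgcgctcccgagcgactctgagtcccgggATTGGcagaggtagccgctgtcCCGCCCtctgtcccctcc

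The Hmgcs1 window held 1 sterol regulatory element match, which overlaps an ETS match, together with 4 CCAAT and 3 GC box matches. The Fasn window held 3 CCAAT matches, of which a pair overlap, and no match to the other letters. Nlrc3 had 1 ETS core match and Camp none of the 7 motifs. Over the 32851 windows of the same length in the table, 1.24% held the sterol element, 7.15% the E-box, 37.4% CCAAT, 35.7% the GC box, 7.81% AP-1, 23.8% the ETS core and 10.8% the C/EBP letters. In the same order, the 12660 windows under regions called in all 4 libraries gave 1.13%, 10.5%, 37.5%, 63.8%, 4.98%, 30.0% and 8.28%. A match is a description of these letters and no evidence of binding.

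The authors' deposited table of CER against Vehicle lists 172 regions, 169 of them less open (closed) and 3 more open (opened) with cerulenin. From the ranks of its p-values and FDRs the test covered about 47774 regions, so 0.354% were closed. In the authors' deposited table the closed regions had a median log2 fold of -1.23, from -2.06 to -1.01, and a median log2 level of 7.74 in Vehicle against 6.48 in CER. All FDRs in the authors' deposited table are 0.0489 or less, and 12 are 0.01 or less. In the authors' deposited table, 64 of the 169 lie in introns, 45 are distal intergenic, 42 are in promoters of its own transcript set, 8 in 3′ UTRs and 7 in exons. Measured from RefSeq protein-coding start sites, 5 of the 169 (2.96%) lay within 1 kb, against 23.5% of the 46057 regions called in both Vehicle libraries. By chromosome, untested, 12.4% of the closed regions lay on chromosome 2 and 11.2% on chromosome 4, against 7.74% and 6.02% of those 46057, while chromosome 11 held 4.73% against 7.72%. Among regions of the authors' deposited table, 3 pairs were within 100 kb of each other, 1 at Gm11511, 1 at Plscr2 and 1 at Ppm1h with A430028G04Rik.

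Of the 169 closed regions, 169 had a called peak in each Vehicle library, 80 in CER replicate 1 and 62 in CER replicate 2. A peak was absent from both CER libraries at 77 regions and present in all 4 libraries at 50. Since these regions were chosen in the same libraries, those counts describe them and are no support for the change. In the libraries that the choice did not use, 96 to 141 regions had a peak. The share for all regions called in both Vehicle libraries was not computed, so these counts are description only. Median pileups of the closed regions were 35 and 49 in Vehicle, against 66 and 67 over all summits of those libraries. Combo cells, which received cerulenin too, had a peak at 77.5% ± 1.67 (SD, n = 2) of the closed regions, and the Day0, LSD1i and 6MP libraries at 72.2% ± 9.61 (SD, n = 6). The difference of 5.33 percentage points was tested toward a lower share in Combo by an exact one-sided permutation test over 28 choices, giving p = 0.786 where the smallest possible was 0.0357. A lower share in Combo was therefore not shown. The 6 libraries are pairs from different groups that the test took as exchangeable, and Combo also received GSK-LSD1 and mercaptopurine. The test thus cannot isolate cerulenin. It covers peak calls alone, and summit signal in Combo at 50 of these regions is given below. The Combo lists held 55713 and 55630 peaks and the other 6 from 43144 to 56398; the part of peak number in the shares was not tested.

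**Figure D1:**
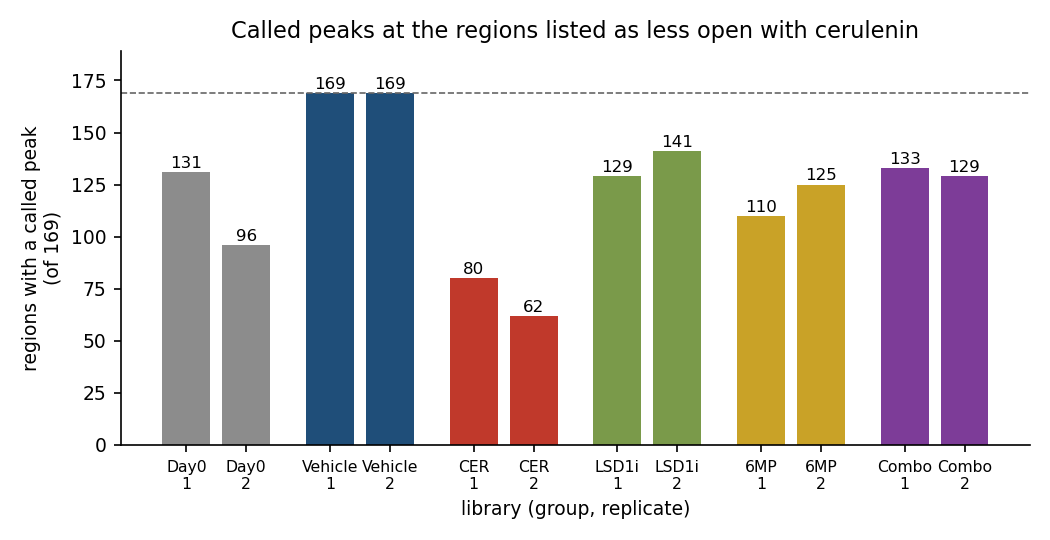
Number of the 169 closed regions with a called peak, 1 bar per library, grouped by treatment; the dashed line marks 169. CER libraries stand at 80 and 62, Combo libraries at 133 and 129.

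The 8 closed regions with the largest folds had a peak in both Vehicle libraries and in no CER library. A distal region near the long noncoding RNA Gm11795 had log2 levels of 7.5 in Vehicle and 5.45 in CER in the authors' deposited table, a fold of -2.06 at an FDR of 1.54e-05. Its pileups were 32 and 53 fragments in Vehicle. A region at an Ensembl transcript start of Dnaaf5, which is needed to assemble the dynein arms of cilia, had a fold of -1.76 in the authors' deposited table, with pileups of 37 and 72 in Vehicle. Klri2, a receptor of the killer cell lectin family, had a fold of -1.83 in the authors' deposited table. The region at Traf3ip2, an adaptor of interleukin-17 receptors, had a fold of -1.74 in the authors' deposited table, and that near Apold1 one of -1.75. Their Vehicle pileups were low, 18 and 17 at Traf3ip2 and 24 and 43 at Apold1. Noncoding or pseudogene names carried 3 more of the 8 largest folds: Gm9843 and Gm17929 at -1.77 and Gm11646 at -1.75 in the authors' deposited table. Of the 4 smallest FDRs, 1 belonged to a distal region with no gene symbol, chr4:88982474-88983056, at 0.00467 with a fold of -1.37 in the authors' deposited table. Its pileups were 78 and 89 in Vehicle and 35 and 27 in CER, with no overlap.

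The highest log2 levels in Vehicle in the authors' deposited table were 9.73 near Gm17173, 9.55 at Gm16339, 9.53 at Gm25308 and 9.47 at Ttc39b, with folds of -1.24, -1.06, -1.11 and -1.11. At Gm17173 the pileups were 111 and 196 in Vehicle and 67 and 54 in CER. At Ttc39b they were 94 and 143 in Vehicle and 63 in CER replicate 1, with no peak in CER replicate 2.

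Of the genes of the lists on lipids and blood cells, the table held 3. Cpt2, the mitochondrial inner membrane enzyme that hands fatty acids to oxidation, carried a closed region in its 3′ UTR at chr4:107904162-107904676, with a fold of -1.16 and an FDR of 0.038 in the authors' deposited table. Its pileups were 64 and 99 in Vehicle and 35 and 25 in CER, with no overlap. Npc1, which exports cholesterol from lysosomes, carried one in exon 15, with a fold of -1.13 in the authors' deposited table and pileups of 57 and 87 in Vehicle against 47 and 31 in CER. Klri2 was the third. No gene of the fatty acid synthesis list was in the table.

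All 3 opened regions are distal intergenic in the authors' deposited table. The one at chr3:133435921-133437319, named for the microRNA gene Gm25042, had log2 levels of 7.47 in Vehicle and 8.59 in CER in the authors' deposited table, a fold of 1.11. Its pileups were 21 and 23 in Vehicle and 63 and 56 in CER. The protein-coding start site nearest to it is that of Tet2, which oxidises 5-methylcytosine, at 107071 bases. For the same region the authors' deposited table of Combo against Vehicle gives a fold of 1.16; the comparisons share the Vehicle libraries. The region near Lonrf1, at chr8:36267354-36268038, had no peak in Vehicle and pileups of 26 and 16 in CER, with a fold of 1.25 in the authors' deposited table. The third, near Yipf5, had no peak in Vehicle and pileups of 21 and 25 in CER, with a fold of 1.32 in the authors' deposited table.

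To place those regions among all open chromatin, summit signal was compared at the 38410 regions with a peak in both CER and both Vehicle libraries. Signal is log2 of the summit pileup over the library's background, centred on the library's median over regions called in all 12 libraries. Most regions were close to level: 92.8% differed by less than 0.5 in either direction, and 41 were over 1 higher and 35 over 1 lower with cerulenin. No region passed an adjusted p of 0.05 in limma's test with Benjamini-Hochberg adjustment (0 of 38410, 0%); 4188 had an unadjusted p under 0.05, and the smallest adjusted p was 0.0750. Without CER replicate 2 the count was 0 too. With a prior variance that follows the mean signal, an alternative setting, limma called 59 opened (0.154%) and 67 closed (0.174%) regions. The median 95% interval of a difference reached 0.41 to either side. Scaled by background alone, the median of all differences moved from 0.03 to -0.26, so directions below are relative to the median region.

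The authors' deposited table calls 50 regions closed that had a peak in all 4 libraries. The centred difference there had a median of -0.90, from -1.47 to -0.47, and 47 had CER and Vehicle values that did not overlap. Over all 38410 regions 43% did not overlap. The 50 were chosen in these libraries, so nothing is read from that count. Without CER replicate 2 their median was -1.07, and without CER replicate 1 it was -0.76. In the groups the choice did not use, the median difference from Vehicle at these regions was -0.63 in Combo, -0.42 in Day0, -0.26 in LSD1i and -0.04 in 6MP, over the libraries with a peak at each region. These comparisons share the Vehicle libraries, whose values helped to choose the regions. The choice thus favours differences below 0 in every group, and nothing is read from their sign. The same limit holds for the order by library that follows. Differences between the groups were not tested. By library the median centred signal was -1.37 and -1.58 in Combo and -1.43 and -1.52 in Day0, between the -2.03 and -1.86 of CER and the -1.25 and -0.83 of Vehicle.

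**Figure D2:**
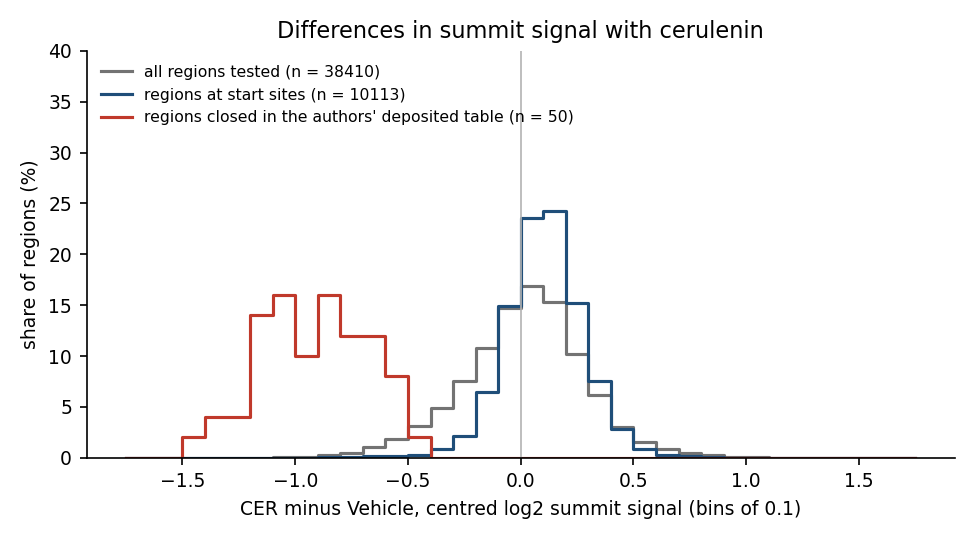
Share of regions (%) by CER minus Vehicle difference in centred log2 summit signal, in bins of 0.1, for all 38410 regions tested, the 10113 at start sites and the 50 closed in the authors' deposited table. The 50 closed regions lie from -1.47 to -0.47, and the start-site curve is shifted to the right of 0 by a median of 0.11.

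Jade1, a scaffold of a histone acetyltransferase complex, had the smallest p among lower regions. Its region at chr3:41592442-41593391 had pileups of 88 and 118 in Vehicle and 41 and 27 in CER. The difference was -1.34 ± 0.18 (SE, n = 2 per group), with an adjusted p of 0.0750 by limma and 0.00683 with the mean-dependent prior. Centred signal there was -0.60 and -0.25 in Vehicle, -1.80 and -1.72 in CER, -1.26 and -1.43 in Combo, -1.31 and -1.24 in Day0, -1.16 and -0.78 in LSD1i and -0.51 and -0.63 in 6MP. Vehicle and 6MP were thus the highest and CER the lowest.

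Nlrc3 encodes a member of the NLR family known for restraining innate immune signals. Pileups at its promoter region were 37 and 51 in Vehicle and 14 and 15 in CER, near the lowest pileups called (13 and 14). The difference was -1.31 ± 0.27 (SE), adjusted p 0.137 by limma and 0.0400 with the mean-dependent prior. In the other 8 libraries centred signal ranged from -1.84 to -1.12, against -3.35 and -2.57 in CER, so the CER libraries were the lowest of the 12. Summits in Vehicle lay after the start site, inside the gene.

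Nadk, the kinase that makes NADP, had a 3′ UTR region with pileups of 51 and 71 in Vehicle and 29 and 16 in CER, a difference of -1.21 ± 0.20 (SE) at an adjusted p of 0.102 by limma. Centred signal there was -2.30 and -2.48 in CER, -1.90 and -2.23 in Combo, -1.54 and -1.89 in LSD1i, -1.62 and -1.49 in 6MP, -1.43 and -1.15 in Day0 and -1.38 and -0.98 in Vehicle. The region named for Mir7049 had pileups of 86 and 87 in Vehicle and 42 and 23 in CER, a difference of -1.20 ± 0.16 (SE) at an adjusted p of 0.0750 by limma. Gm22685 marked the lowest difference among listed regions, -1.47 ± 0.27 (SE), with pileups of 66 and 95 in Vehicle and 35 and 16 in CER. Against these, Gm25042 had the highest difference of all regions tested, 1.71 ± 0.21 (SE), adjusted p 0.0750 by limma and 0.00675 with the mean-dependent prior. Its centred signal was -1.18 and -0.67 in CER, -1.30 and -1.55 in Combo, -1.40 and -1.49 in 6MP, -1.52 and -1.55 in Day0, -2.47 and -1.89 in LSD1i and -2.66 and -2.61 in Vehicle. Combo thus lay beside 6MP and Day0, below CER and above Vehicle.

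**Figure D3:**
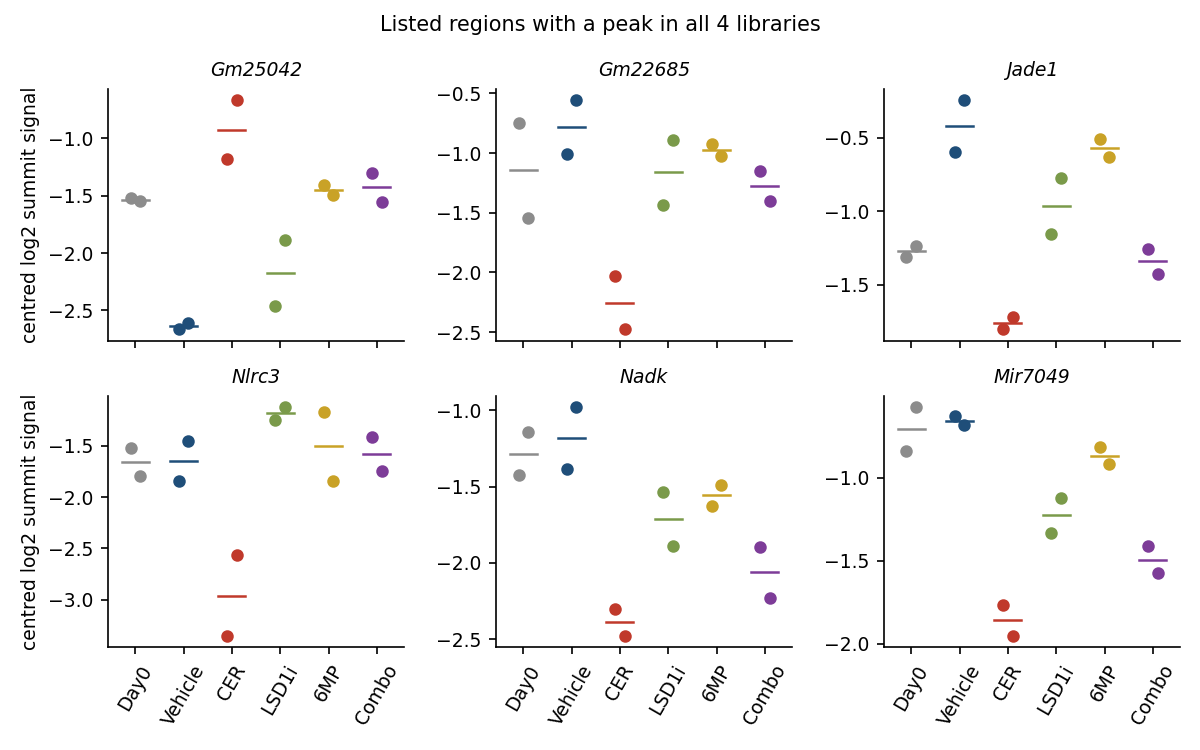
Centred log2 summit signal (vertical axis, own scale per panel) in each library by group, points for replicates and bars for the group mean, at the 6 listed regions with the largest differences among those with a peak in all 4 libraries. CER is the highest group at Gm25042 and the lowest at the other 5.

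Beyond these, the smallest p-values among higher regions belonged to regions inside genes. The nearest protein-coding starts were those of Cenpu, a centromere protein, at 17446 bases and Nr3c1, the glucocorticoid receptor, at 277906 bases. Which gene holds each region was not identified. Next came one 7992 bases from a start of Cpeb4, an RNA-binding translational regulator, and one near Rnf149. Pileups were 59 and 56 in Vehicle and 123 and 81 in CER at Cenpu, a difference of 1.07 ± 0.15 (SE). At Cpeb4 they were 15 and 22 in Vehicle and 50 and 30 in CER, a difference of 1.37 ± 0.20 (SE). Nr3c1 and Rnf149 differed by 1.22 ± 0.17 (SE) and 1.27 ± 0.21 (SE). Among lower regions, one 24539 bases from a start of Thap12 had pileups of 111 and 124 in Vehicle and 57 and 26 in CER, a difference of -1.33 ± 0.19 (SE). One 92095 bases from the start of Dio2, a deiodinase that activates thyroid hormone, is also a listed region and had 61 and 59 in Vehicle against 31 and 16 in CER. Adjusted p-values by limma were 0.0750 at Cenpu and Thap12, 0.0919 at Cpeb4, Nr3c1 and Dio2 and 0.102 at Rnf149.

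Of the 13 lipid genes reported here, 11 had a start-site peak in all 4 libraries, and none passed the test. Fasn had pileups of 746 and 633 in Vehicle and 794 and 551 in CER, which overlap, and a centred difference of 0.22 with a 95% interval from -0.25 to 0.69. Acaca, which makes malonyl-CoA, differed by 0.33 (95% interval -0.10 to 0.77), and its CER values lay above its Vehicle values. Acly, which makes cytosolic acetyl-CoA from citrate, differed by 0.01 (-0.44 to 0.46), and Acss2, which makes it from acetate, by -0.01 (-0.43 to 0.41). Of the enzymes that desaturate and lengthen fatty acids, Scd2 differed by 0.16 (-0.23 to 0.55) and Elovl6 by 0.22 (-0.14 to 0.58), while Scd1 had no peak at its start site.

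Srebf1 and Srebf2, which encode the SREBPs, differed by 0.17 (-0.21 to 0.54) and 0.14 (-0.34 to 0.63), and Insig1, which holds SREBPs in the endoplasmic reticulum, by 0.03 (-0.35 to 0.42). Hmgcs1, an early enzyme of the mevalonate pathway, had pileups of 735 and 821 in Vehicle and 687 and 409 in CER, the lowest difference of its list at -0.28 (-0.82 to 0.26). Cpt1a, the gate of mitochondrial fatty acid oxidation, differed by 0.11 (-0.22 to 0.44), and Cd36, a fatty acid transporter, had no peak at its start site. These intervals do not show that the genes were unchanged.

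As a list, 29 start sites of fatty acid synthesis genes had a median difference of 0.11, with 22 above 0, and 29 of sterol and SREBP genes one of 0.07, with 22 above 0. All 10113 start-site regions had a median of 0.11, with 7564 above 0. At an unadjusted p of 0.05, 1 start site of each list was higher: Me1, a malic enzyme that makes NADPH, at 0.64 ± 0.27 (SE), and Pmvk, a mevalonate pathway kinase, at 0.49 ± 0.14 (SE), both named after their values were seen. Scaled by background alone the medians turned to -0.19 and -0.23, beside -0.19 for all start-site regions. Without CER replicate 2 they were 0.10 and -0.01.

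Of 24 genes of granule proteins and neutrophil maturation, 14 had a peak at the start site and 12 could be tested. All 12 differences were above 0, from 0.08 to 1.05, with a median of 0.35 against 0.11 for all start-site regions. None passed the adjusted test, and 6 had an unadjusted p under 0.05, all higher, beside 429 higher and 68 lower (4.91%) of all 10113 start-site regions. In bulk cells, a larger share of cells with these sites open and a wider opening in each cell cannot be told apart. Scaled by background alone, 6 of 12 were above 0 with a median of 0.06, where all start-site regions had -0.19. At that scaling 0 of the 12 had an unadjusted p under 0.05 in limma's test, beside 1 higher and 52 lower of all 10113. Without CER replicate 2 the median of the 12 was 0.41, with 11 above 0.

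Camp, the cathelicidin of secondary granules, had pileups of 48 and 39 in Vehicle and 84 and 65 in CER, a difference of 1.05 ± 0.24 (SE) at an adjusted p of 0.154 by limma and 0.0477 with the mean-dependent prior. Its centred signal was -1.47 and -1.84 in Vehicle, -0.77 and -0.45 in CER, -0.65 and -0.70 in Combo, -1.50 and -1.57 in LSD1i, -1.40 and -0.70 in 6MP and -1.10 and -1.55 in Day0. The 4 libraries that received cerulenin and 6MP replicate 2 were thus the highest. Cxcr2, the chemokine receptor of neutrophils, differed by 0.70 ± 0.19 (SE), with pileups of 62 and 43 in Vehicle and 87 and 55 in CER. Ms4a3, a marker of committed granulocyte-monocyte progenitors, differed by 0.72 ± 0.22 (SE), with 63 and 63 in Vehicle and 113 and 65 in CER. For Lcn2, which binds bacterial siderophores, Mmp8, the neutrophil collagenase, and Csf3r, the G-CSF receptor, the differences were 0.61 ± 0.19, 0.43 ± 0.15 and 0.44 ± 0.19 (SE). These 6 are the start sites with an unadjusted p under 0.05. A region 93360 bases from a Csf3r start was lower instead, at -0.69 ± 0.19 (SE), with an adjusted p of 0.212 by limma. The order of libraries at Camp did not hold at Cxcr2, Ms4a3, Lcn2 or Mmp8. Centred signal was highest in Day0 replicate 2 at Lcn2 (-0.43) and in 6MP replicate 2 at Ms4a3 (-0.27). At Mmp8 it was 0.76 and 0.83 in LSD1i against -0.12 in CER replicate 1. At Cxcr2 CER was highest (-0.72 and -0.69), while Combo (-1.28 and -1.04) was not above 6MP (-1.04 and -0.95).

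Smaller differences were measured at the start sites of primary granule genes. Mpo, Prtn3 and Ctsg, which encode myeloperoxidase and serine proteases, differed by 0.15, 0.13 and 0.10 there, and the CER and Vehicle values overlapped at each. A region 3200 bases from an Mpo start differed by 0.61 ± 0.17 (SE), with an adjusted p of 0.224 by limma. Ngp was called in Vehicle replicate 1 alone of the 4 libraries, and Ltf, S100a8, S100a9 and Ly6g had no start-site peak in these 4. Of other cell types, 3 of 4 defining megakaryocyte markers could be tested: Itga2b and Gp9, parts of platelet receptors, differed by -0.45 ± 0.20 and -0.46 ± 0.14 (SE) and Pf4 by -0.13. Their part in the other results was not tested.

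**Figure D4:**
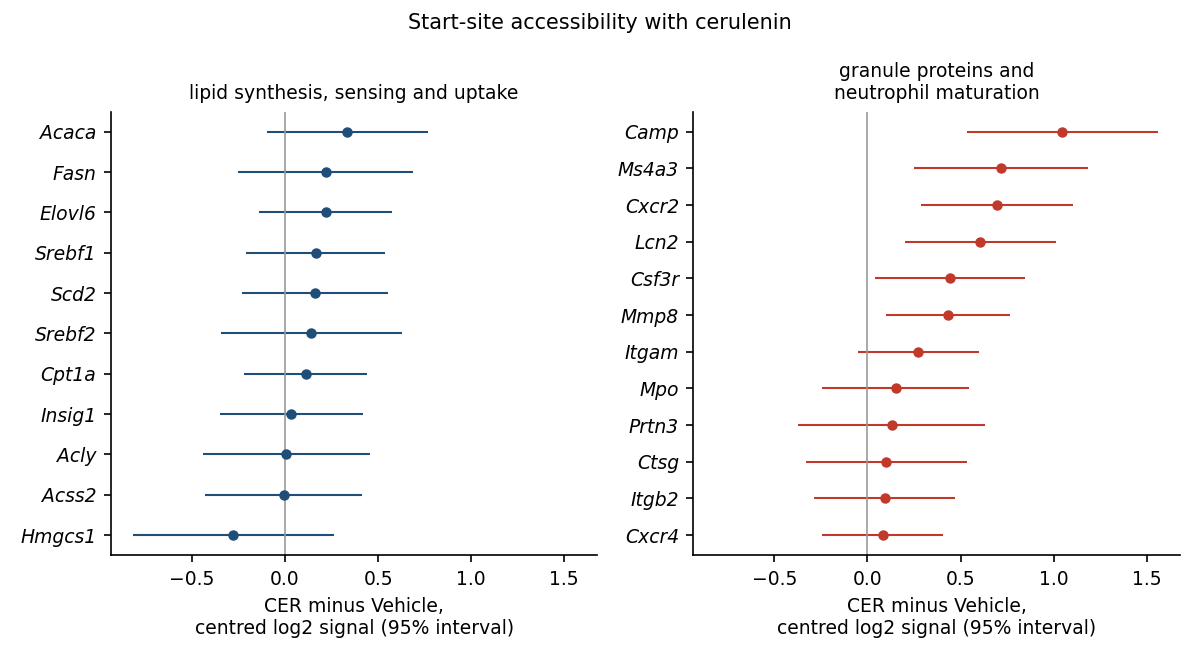
CER minus Vehicle difference in centred log2 summit signal at start sites (points) with 95% intervals from limma, for selected lipid genes on the left and the 12 tested granule and maturation genes on the right. All lipid intervals drawn cross 0, and the highest point is Camp at 1.05.

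The other lists of the cells' own pathways had start-site medians nearer to 0.11 than the granule list. The medians were 0.14 over 24 protein palmitoylation genes, 0.08 over 29 of fatty acid uptake, oxidation and lipid receptors, 0.05 over 27 of the integrated stress and unfolded protein responses and 0.09 over 18 p53 targets and apoptosis genes. They were 0.07 over 26 cell cycle genes, 0.05 over 19 progenitor and self-renewal factors, 0.06 over 29 myeloid transcription factors, 0.17 over 12 monocyte and macrophage genes and 0.10 over 13 genes of the LSD1 complex. With background scaling alone each of these medians was below 0, as was that of all start-site regions. Counting every region near a list gene, here within 100 kb of its start, no list held a call by limma. Of 145 regions near progenitor factors, 4 were higher and 16 lower at an unadjusted p under 0.05, beside 2051 higher and 2137 lower of all 38410. Of 48 near granule and maturation genes, 9 were higher and 1 lower, and of 54 near monocyte and macrophage genes 5 and 1. Of 189 near myeloid transcription factors 3 were higher and 10 lower, and of 55 near LSD1 complex genes 0 and 3. Each of the 7 remaining lists had 3 to 7 higher and 2 to 7 lower.

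For longer lists of other cell types' genes, start-site medians rested on 2 to 5 genes each. They were 0.08 for erythroid, -0.29 for megakaryocyte, 0.02 for mast cell and basophil, -0.06 for B cell, 0.18 for T and NK cell, -0.05 for dendritic cell and -0.06 for stromal and endothelial genes.

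Away from start sites, regions within 100 kb of a start of a list gene differed in both directions. Those named here, with Camp above and the start site of Bax, are all such regions that passed limma with the mean-dependent prior. They were named after their values were seen. Beyond that limit, a region 144709 bases from a start of Kit, a progenitor marker, also passed under that prior, at -0.83 ± 0.18 (SE). A region 69302 bases from a start of Meis1, a partner of HOXA9, had pileups of 96 and 152 in Vehicle and 67 and 37 in CER. Its centred signal was -0.47 and 0.12 in Vehicle and -1.09 and -1.27 in CER. Its adjusted p by limma was 0.0332 under that prior and 0.154 under the constant prior variance of the main setting. One 57560 bases from a Runx1 start, a regulator of blood stem cells, had 245 and 238 in Vehicle and 170 and 94 in CER, a difference of -0.66 ± 0.16 (SE). Another, 13024 bases from a start of Abcg1, which exports cholesterol, had 84 and 95 in Vehicle and 52 and 28 in CER. The difference was -0.95 ± 0.19 (SE). One 19158 bases from a start of Zdhhc7, a protein palmitoyltransferase, had 147 and 141 in Vehicle and 85 and 50 in CER. It differed by -0.87 ± 0.18 (SE). In the region 30130 bases from the start of Bbc3, which encodes a trigger of apoptosis, pileups were 180 and 229 in Vehicle and 104 and 91 in CER, a difference of -0.79 ± 0.19 (SE).

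Higher signal was measured at 2 regions between genes. One 23965 bases from the start of Tlr4, the receptor for bacterial lipopolysaccharide, had 92 and 81 in Vehicle and 151 and 106 in CER, a difference of 0.83 ± 0.20 (SE). One 21015 bases from Cxcr4, the chemokine receptor that holds cells in the marrow, had 108 in each Vehicle library and 202 and 105 in CER, a difference of 0.71 ± 0.19 (SE). At the Bax start site, a promoter of apoptosis, pileups were 164 and 143 in Vehicle and 237 and 167 in CER, a difference of 0.65 ± 0.16 (SE). Adjusted p-values by limma with the constant prior variance were 0.183 at Runx1 and Bbc3, 0.133 at Abcg1 and Zdhhc7, 0.174 at Tlr4 and Bax and 0.205 at Cxcr4.

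Of 60683 regions with a peak in any of the 4 libraries, 315 (0.519%) had one in both CER libraries and neither Vehicle library, and 2243 (3.7%) the reverse. Without CER replicate 2 the counts were 2536 and 2795, and without CER replicate 1 they were 902 and 7095. Without Vehicle replicate 1 they were 971 and 6643, and without Vehicle replicate 2 they were 895 and 4706. The excess of losses was thus small only without CER replicate 2. With a library left out, its group needs 1 call or absence in place of 2, so these counts follow a looser rule. Start sites made up 2.54% of the gained and 2.99% of the lost regions, and the median pileup was 23 fragments in both. Of the gained regions 67.9% had a peak in each Combo library, and 20% to 54.9% in the Day0, LSD1i and 6MP libraries. Of the lost regions 60.1% and 58.8% had one in Combo, and 24.9% to 65.5% in those 6. Shares over all regions are not given beside these, so they are description only. The Combo lists held 55713 and 55630 peaks and those 6 from 43144 to 56398, and the part of peak number was not tested.

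**Figure D5:**
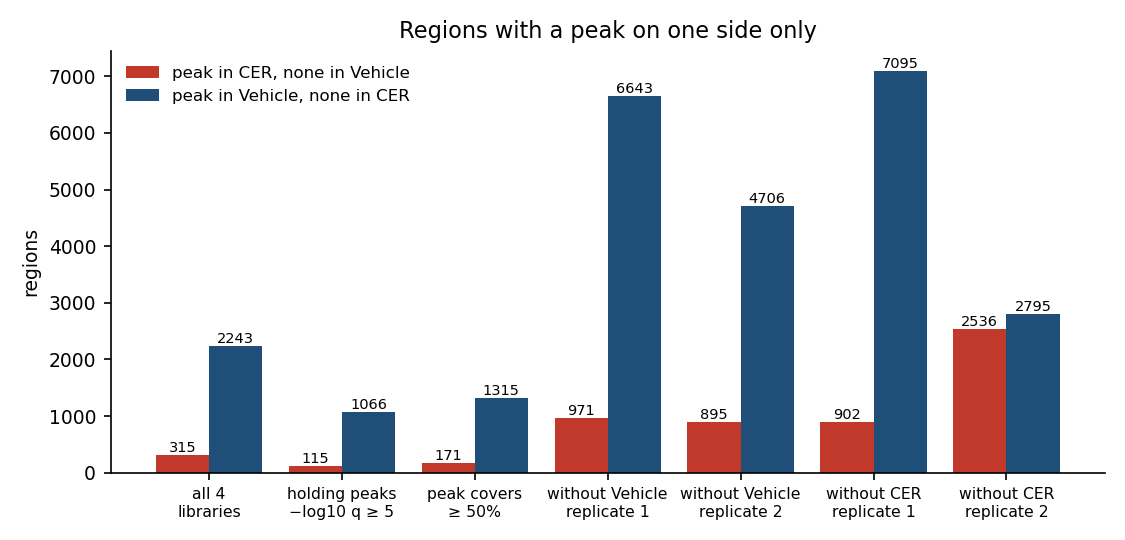
Number of regions (vertical axis) with a peak in CER and none in Vehicle, and the reverse, with all 4 libraries, under stricter rules and with each library left out. Losses outnumber gains by 2243 to 315 with all 4 libraries and are nearly level, 2795 to 2536, without CER replicate 2.

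The one-sided regions with the highest pileups rose little above their surroundings. Among the lost, a region 2071 bases from a start of H2-DMa, an MHC class II chaperone, had pileups of 323 and 322 in Vehicle. Its folds over local background were 1.60 and 1.53 in the authors' peak lists. Folds were 2.52 and 2.82 at Gse1, 1.85 and 2.48 at Dohh, 1.80 and 2.12 at Fut8 and 2.28 and 2.49 at Ppp1r15b. Among the gained, folds in CER were 2.88 and 3.19 at Ralgds, 3.63 and 4.21 at Zmiz1, 1.72 and 1.75 at St14, 3.80 and 3.50 at Ccar2 and 3.21 and 3.62 at Aldh2. The regions were also ranked by that fold instead, a choice made after the values were seen. The 2 highest gained regions then lay 12159 bases from a start of Rab39, a small GTPase, and 3634 bases from one of Slc9a3, a sodium-proton exchanger. At Slc9a3 the pileups were 75 and 45 in CER and 79 and 72 in Combo, with peaks of 29 to 57 in 4 libraries without cerulenin. At Rab39 they were 41 and 39 in CER, 86 in Combo replicate 1 and 83 and 81 in LSD1i. The highest lost region, 137413 bases from a start of Mtmr9, had 88 and 101 in Vehicle and 140 and 121 in Combo. It had 104 in LSD1i replicate 2 and 77 in 6MP replicate 2.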

How the data were processed

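ATAC-seq libraries of 6 groups of 2 were deposited as peak lists. Per the submitters' processing notes, the tools named, with mm10 as the build, were Bowtie2, Trimmomatic 0.38, Picard 2.18.26, SAMtools 1.9, DiffBind and MACS2 2.1.2; order and settings are not given in the sources used here. The authors' peak lists give a whole-number score, a fold ratio of the summit over local background, and −log10 of the p-value and q-value (q of 0.01 or less). The authors' deposited comparison table gives log2 levels and folds, p-values and FDRs; its scaling is not given in the sources used here. Pileups were solved from the fold and the Poisson p-value and were whole numbers (tolerance 0.001 in −log10 p) at 100% of summits. Peaks of the 12 libraries were joined into 73156 regions. limma 3.58.1 (R 4.3.3) was fitted on all 12 libraries, tested on simulated data, with Benjamini-Hochberg adjustment at 0.05. Precision rests on the fragment pileups, since read totals were not used.

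Start sites are those of 19674 protein-coding RefSeq genes (within 1 kb), and 365 of 377 list genes matched. Named were, in the authors' table, the 8 largest folds, 4 smallest FDRs, 4 highest Vehicle levels and list genes; on the signal, the smallest p-values and the 5 largest differences of listed regions; the 5 highest one-sided regions per direction; 15 lipid genes, of which 13 are reported here; and markers. Members and lists were chosen with earlier results of these data known. Alternatives are in the closing section.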

Additional observations from a re-analysis of the deposited data

How the results depend on the processing

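limma called 0 regions with the spread from the 4 libraries, with background scaling, with the intensity trend removed and with each library left out (0 to 0). It called 126 with a mean-dependent prior variance, 7 at a mean pileup of at least 30 fragments and 5 among regions called in all 12 libraries. With the replicate number as a block, limma called 0 with the 4 libraries and 0 with all 12; the deviations of same-numbered CER and Vehicle libraries had a correlation of 0.23 over regions, the labels say nothing of a shared number, and the block changed no other call. The 315 gained regions became 115 at a −log10 q of at least 5 and 171 where a peak had to cover 50% of the region, and 895 to 2536 with a library left out. The 2243 lost regions became 1066, 1315 and 2795 to 7095; the lowest came without CER replicate 2. The authors' deposited table holds 172 regions, 12 at an FDR of 0.01 or less and 15 at an absolute log2 fold of at least 1.5. The Combo difference of 5.33 points was 4.14 to 6.51 with a Combo library left out, 9.07 where a peak had to cover 50% of the region and 10.1 at a −log10 q of at least 5. The 35 single regions tested were shifted down by background scaling; a cause of the other moves was not tested. Depth limits regions near the lowest called pileups of 13 and 14 fragments, where a lost call can be a small change.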
